A study of Homo sapiens with 12 samples.

Results

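Adding the USP7 inhibitor P5091 to the EZH2 inhibitor EPZ-6438 was examined in 4 FOXA1 chromatin immunoprecipitation sequencing (ChIP-seq) libraries of LNCaP cells, chosen by their labels from the 12 libraries of the series. The groups were the combination of 1 µM EPZ-6438 with 3 µM P5091 (2 libraries) and 1 µM EPZ-6438 alone (2 libraries), both after 7 days, so that every library compared carries EPZ-6438. LNCaP is a line of human prostate cancer cells that respond to androgen, and all FOXA1 libraries used here come from this one line with the same FOXA1 antibody. The labels give a replicate number to each library and do not say whether replicates were separate cultures, so a p-value here speaks of the spread among these libraries, which may be technical. Libraries of 3 µM P5091 alone and of DMSO, the solvent control (2 of each, 7 days), serve below only as a second view of what P5091 does. Libraries of an antibody against the HA tag in LNCaP cells (1 of each, 5 days) give reference sites. They hold tagged wild-type FOXA1 and tagged K295A FOXA1, both with a hairpin against FOXA1. Untagged controls carried pGIPZ or the hairpin alone.

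FOXA1 is a forkhead pioneer factor: it binds nucleosomal DNA at enhancers of luminal prostate cells and opens it for the androgen receptor and other factors. EZH2 is the methyltransferase of Polycomb repressive complex 2, which marks silent chromatin and can also methylate proteins other than histones. USP7 removes ubiquitin from its substrates and so protects them from degradation by the proteasome. The title of the series places both enzymes in the control of FOXA1 protein stability, and the comparison asks whether blocking USP7 in cells already treated with the EZH2 inhibitor changes where and how strongly FOXA1 occupies the genome. ChIP-seq reports occupancy relative to the rest of each library. A loss of FOXA1 common to every site and a weaker immunoprecipitation would look alike in such values. FOXA1 protein was not analysed here.

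The peaks of the 4 libraries formed 116749 regions once peaks sharing at least 1 base were merged, with a median width of 363 bases on the hg19 genome, and 27210 of them (23.3%) were called in all 4 libraries. Total tags, the mapped reads counted by the peak caller, ranged from 12299238 to 22589685. Signal is given as normalized tag count, a peak's tags per 1e7 tags of its library. One library stood apart before any comparison was made: in combination replicate 1, 5.26% of tags lay in peaks, against 20.2% in combination replicate 2, 18.9% in EPZ-6438 replicate 1 and 21.2% in EPZ-6438 replicate 2. Most results that rest on it are given by replicate, or with and without it. The 27210 common regions had to be called in it, so replicate 2 values at these regions are limited by its calls too. The sets of gained and lost regions described below also rest on its calls.

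Replicate 1 showed a far smaller FOXA1 peak set with the combination, and replicate 2 showed nearly the same peak set as EPZ-6438 alone. The combination libraries held 30811 and 83194 peaks in replicates 1 and 2, against 77780 and 84423 with EPZ-6438. Combination replicate 1 was the lowest of the 4, while combination replicate 2 lay between both EPZ-6438 libraries, so the groups overlapped. The difference in log2 peak number was -1.34 in replicate 1 and -0.021 in replicate 2 (mean -0.68 ± 0.93 SD, n = 2 pairs). A two-sided exact permutation of the signs gave p = 0.5, below which 2 pairs cannot go. Comparing 2 libraries with 2 without the pairing gave an exact permutation p = 0.667, two-sided, where 0.333 is the smallest possible.

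Signal at the 27210 common regions behaved the same way. The median normalized tag count was 14.4 and 33.9 in combination replicates 1 and 2, against 32.3 and 35.8 in EPZ-6438 replicates 1 and 2. On the log2 (tag count + 1) scale the combination differed from EPZ-6438 by -1.11 in replicate 1 and by -0.076 in replicate 2 (mean -0.59 ± 0.73 SD, n = 2 pairs; exact permutation of signs, p = 0.5). Peaks of EPZ-6438 replicate 1 were 363 bases wide and those of combination replicate 1 were 279, whereas replicate 2 had 274 bases with the combination and 290 with EPZ-6438. Per 300 bases of peak the differences were -0.75 in replicate 1 and 0.003 in replicate 2, so that replicate 2 no longer pointed down (exact permutation of signs, p = 1).

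**Figure D1:**
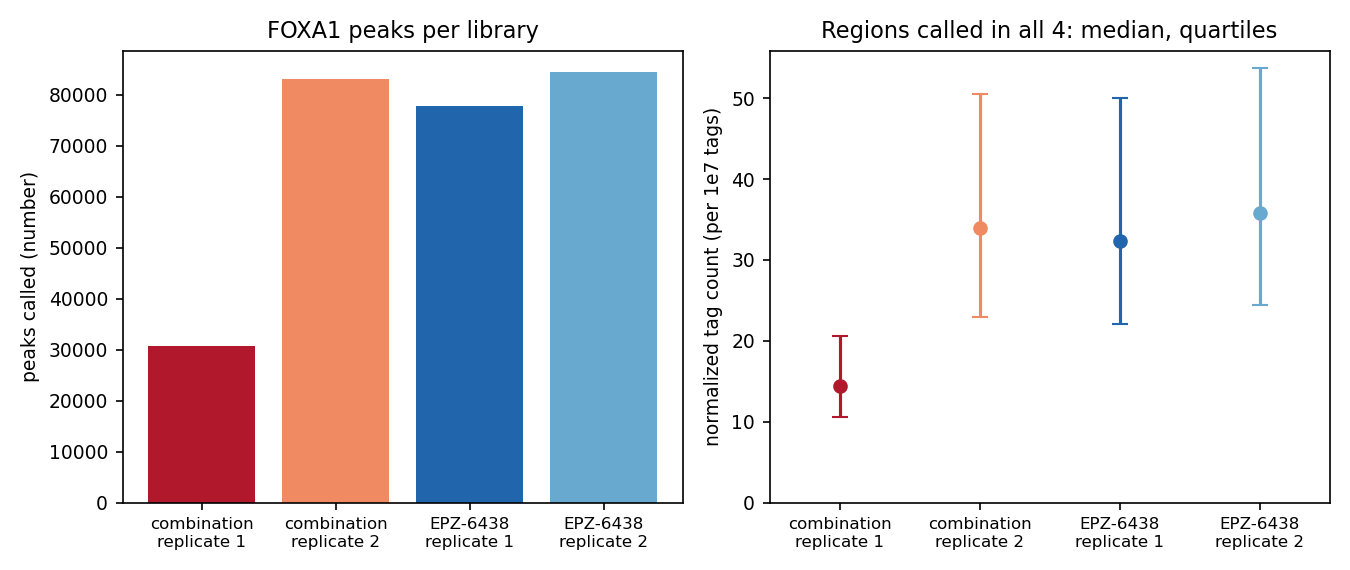
Left, number of FOXA1 peaks called in each library; right, median normalized tag count (points, per 1e7 tags) with quartiles (bars) at the 27210 regions called in all 4 libraries. Combination replicate 1 stands below the other 3 libraries in both panels, with 30811 peaks and a median of 14.4.

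The peak caller's other measures at the same 27210 regions moved with the signal. Fold over the local 10 kb window had a median of 13.6 and 27.5 in combination replicates 1 and 2, against 20.1 and 27.1 with EPZ-6438. Fold over the input library, unselected chromatin that serves both replicates of a treatment, had a median of 16.6 and 38.2 with the combination and 27.3 and 37.6 with EPZ-6438. Median log2 differences within replicates were -0.51 and 0.022 over the local window and -0.70 and 0.043 over input. The focus ratio, the share of a peak's tags on the expected strand and side of its centre, had a median of 0.871 in combination replicate 1 and 0.895 in each of the other 3 libraries. Thus by each measure combination replicate 1 was the weaker library and combination replicate 2 lay close to its EPZ-6438 partner.

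Where a region was called in all 4 libraries, peak centres lay farther apart between treatments than between EPZ-6438 replicates in replicate 1, and closer in replicate 2. The centres of the peaks in a common region lay a median of 29 bases apart between combination and EPZ-6438 in replicate 1 and 21 bases apart in replicate 2. The replicates of EPZ-6438 itself lay 23 bases apart at the median. Centres more than 100 bases apart were found at 7.96% of regions in replicate 1 and 3.52% in replicate 2, beside 4.80% between the EPZ-6438 replicates.

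With each library centred on its median over the common regions, no region passed the test for a change of FOXA1 signal upon adding P5091. limma on log2 (tag count + 1), blocked by replicate number and with Benjamini-Hochberg adjustment at 0.05, called 0 of 27210 regions higher and 0 lower (0% in either direction). At an unadjusted p under 0.05 there were 1158 regions (4.26%), where 5% are expected if nothing changes. Of these, 606 were higher and 552 lower with the combination. On whole tags recovered from the deposited values, edgeR's quasi-likelihood test also called 0, with 1123 unadjusted, and DESeq2 called 0, with 32 unadjusted. The median standard error of a region was 0.31, which gives a 95% interval of ± 0.61 on the log2 scale, or 1.52-fold to either side. Its spread was pooled over regions of like signal, as each region has only 2 pairs, and centring had removed the gap between the pairs. Without centring the median standard error was 0.82 and the interval ± 1.60. Neither interval is adjusted for the number of regions, and centred log2 differences as large as 1.45 did not pass the adjusted test. Absence of a call therefore does not show equal occupancy.

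Replicates 1 and 2 did not move the same regions. The centred difference, combination minus EPZ-6438, had a standard deviation over regions of 0.51 in replicate 1 and 0.40 in replicate 2. Counting error of the tags alone would give standard deviations of 0.35 and 0.33, which do not add to the rest as parts of a sum. Both replicates differed in the same direction at 13410 of 27210 regions (49.3%), and the differences of replicate 1 and replicate 2 correlated across regions with Pearson r = -0.017. Regions within a library share its depth and immunoprecipitation and are not independent replicates, so this r is a description. Within a replicate, log2 tag counts of combination and EPZ-6438 correlated with r = 0.81 in replicate 1 and 0.88 in replicate 2, beside 0.81 between EPZ-6438 replicates and 0.78 between combination replicates.

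Regions beyond 2-fold numbered 1355 of 27210 in replicate 1 and 502 in replicate 2. Replicate 1 held 996 regions at least 2-fold higher and 359 at least 2-fold lower after centring. Of the regions that were 2-fold higher there, 48.6% were also above 0 in replicate 2, and their median difference in replicate 2 was -0.018. Of those 2-fold lower in replicate 1, 47.1% were also below 0 in replicate 2, with a median of 0.034. Replicate 2 held 254 regions at least 2-fold higher and 248 at least 2-fold lower. At both its sets the median in replicate 1 was above 0, at 0.30 and 0.25. At least 2-fold in the same direction in both replicates were 21 higher regions (0.0772%) and 5 lower ones (0.0184%), and 22 others were 2-fold higher in replicate 1 and 2-fold lower in replicate 2. Regions whose combination values both lay above both EPZ-6438 values after centring numbered 4037 (14.8%), and 3540 (13%) lay wholly below.

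**Figure D2:**
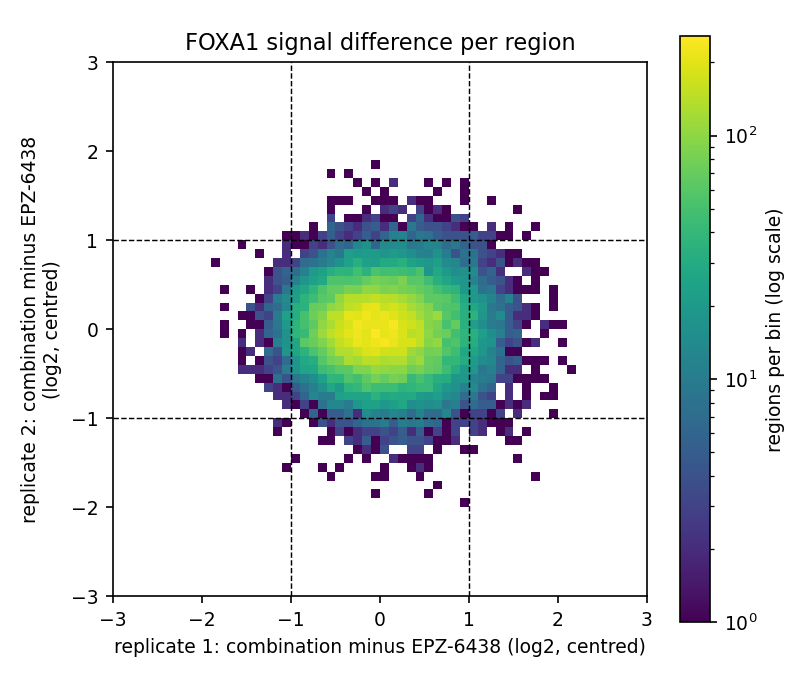
Centred log2 difference, combination minus EPZ-6438, of replicate 1 (horizontal) against replicate 2 (vertical) for 27210 regions; colour gives the number of regions per bin on a log scale, and dashed lines mark 2-fold. The cloud has no slope (r = -0.017), and the corners beyond 2-fold in both replicates hold 21 regions at upper right and 5 at lower left.

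The centred difference varied with region strength in replicate 1 and hardly at all in replicate 2. Regions were ranked into 5 bins of about equal size by the libraries of the other replicate, so that the ranking did not use the values compared. In replicate 1 the median centred difference was 0.35 in the weakest bin and -0.18 in the strongest, with 0.13, -0.022 and -0.11 between them. In replicate 2 the medians of all 5 bins lay between -0.002 and 0.010. The share of regions beyond 2-fold was 10.7% in the weakest bin and 1.93% in the strongest in replicate 1, and 4.01% and 0.184% in replicate 2. The weakest bin has a median of 17.7 tags per 1e7 in the replicate 2 libraries, and only regions called in combination replicate 1 can enter it.

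**Figure D3:**
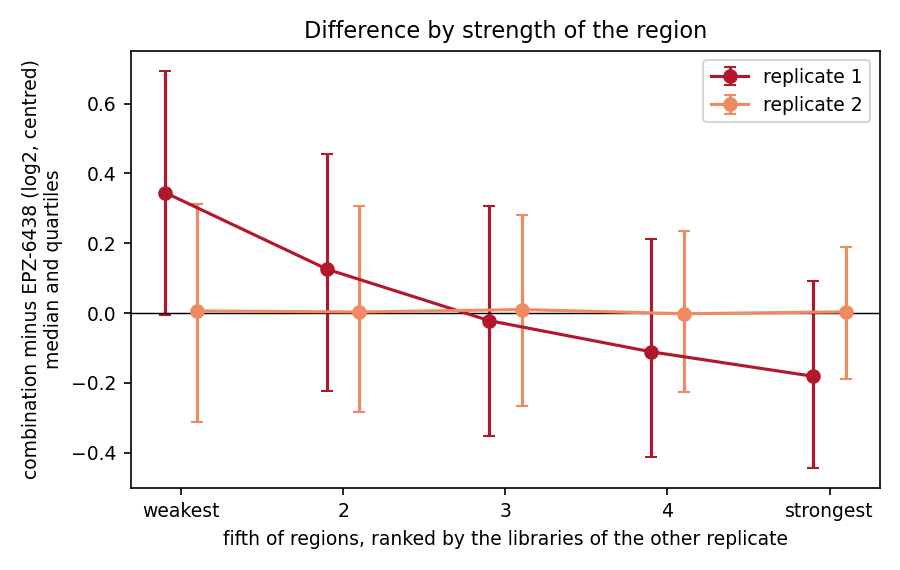
Median (points) and quartiles (bars) of the centred log2 difference, combination minus EPZ-6438, by bin of region strength (5 bins of about equal size) in replicate 1 and replicate 2. Replicate 1 runs from 0.35 in the weakest bin to -0.18 in the strongest, and replicate 2 stays between -0.002 and 0.010.

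The strongest FOXA1 site on an assembled chromosome, chr2:242032793-242033155, shows this tilt. It had normalized tag counts of 183.8 and 424.6 with the combination, against 540.5 and 453.7 with EPZ-6438, and its centred differences were -0.44 in replicate 1 and -0.019 in replicate 2 (log2 difference -0.23 ± 0.25 SE, limma adjusted p = 0.999). At chr17:79367740-79368102 the counts were 156.3 and 385.9 with the combination and 429 and 329.3 with EPZ-6438, with centred differences of -0.34 and 0.30. Both sites are among the 5 strongest, and the replicates of the second one point opposite ways.

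Chromosomes differed little, and again not alike in both replicates. Over the 23 chromosomes with at least 200 common regions, median centred differences ran from -0.16 to 0.13 in replicate 1 and from -0.020 to 0.079 in replicate 2. Chromosome 19, the most gene-dense human chromosome, had the lowest median in replicate 1 (-0.16, 436 regions) and the highest in replicate 2 (0.079). Chromosome 13, which is gene-poor, had the highest in replicate 1 (0.13, 648 regions) and the lowest in replicate 2 (-0.020). The share of regions called in both EPZ-6438 libraries and in neither combination library ran from 9.53% on chromosome 16 to 13.6% on chromosome 18.

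Sites of reintroduced FOXA1 gave a readout from other libraries. HA-tagged wild-type FOXA1, precipitated with an antibody against the tag in cells expressing a hairpin against endogenous FOXA1 (1 library, 5 days after infection), had a peak at 23906 of the 27210 common regions. There the median centred differences were -0.022 and -0.001 in replicates 1 and 2. At the 3304 common regions without a tagged FOXA1 peak they were 0.29 and 0.037. Regions without a tagged peak were weaker, with a median of 22 in EPZ-6438 replicate 2 against 38.2 at those with one, and the part of strength in that difference was not tested. Spacing of sites went with smaller differences. The medians were 0.006 and -0.011 where the next region lay within 2000 bases (4592 regions), and 0.055 and 0.032 where it lay beyond 20000 bases (4297 regions).

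Regions that gained a peak with the combination were few and regions that lost one were many. Gained regions, called in both combination libraries and in neither EPZ-6438 library, numbered 486 (0.416% of all merged regions), and lost regions, the reverse, numbered 7083 (6.07%). A region without a peak has no tag count in the deposited lists, so these are counts of calls, with no test. The balance rests on combination replicate 1. Without it, in replicate 2 alone, 19938 regions were called with the combination only and 21168 with EPZ-6438 only. In replicate 1 alone the numbers were 2205 and 49174.

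Replicate 2 calls with and without P5091 overlapped as much as the EPZ-6438 replicates did with each other. In replicate 2, 63255 regions were called in both libraries, which is 76.0% of the combination regions and 74.9% of the EPZ-6438 regions. EPZ-6438 replicates shared 60094 regions, 77.3% of replicate 1 and 71.2% of replicate 2. Combination replicate 1 was nearly contained in its partners: 92.8% of its regions were called in EPZ-6438 replicate 1 and 94.8% in combination replicate 2. Regions called in a single member of the replicate 2 pair were weak, with a median of 11.8 for those of the combination and 12.2 for those of EPZ-6438.

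The largest set with an incomplete pattern was made of 25274 regions missing in combination replicate 1 alone. Their signal in replicate 2 was close with and without P5091. The median was 16.6 with the combination and 17.1 with EPZ-6438, and the centred difference had a median of 0.034 with quartiles of -0.30 and 0.33. In EPZ-6438 replicate 1 their median was 15.1, against 32.3 at the regions called in all 4. The caller's false discovery rate threshold in combination replicate 1 was 11 tags, or 6.88 per 1e7 tags. It is not a strict floor, as the lowest peak listed there had 5 per 1e7. Shifting the EPZ-6438 replicate 1 value of each region by the median difference of replicate 1 put 55.6% of these regions under that threshold, 81.2% of the lost regions and 10.5% of those called in all 4. That shift was taken only from regions that combination replicate 1 did call, so it need not hold where no peak was called. The shares therefore do not divide the missing calls by cause. Whether a region called in the other 3 libraries was also called in combination replicate 1 followed its strength. The share was 8.73% where EPZ-6438 replicate 1 had under 10 tags per 1e7 and 24.9% between 10 and 20. It was 85.6% between 30 and 50 and 1391 of 1392 regions over 100.

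**Figure D4:**
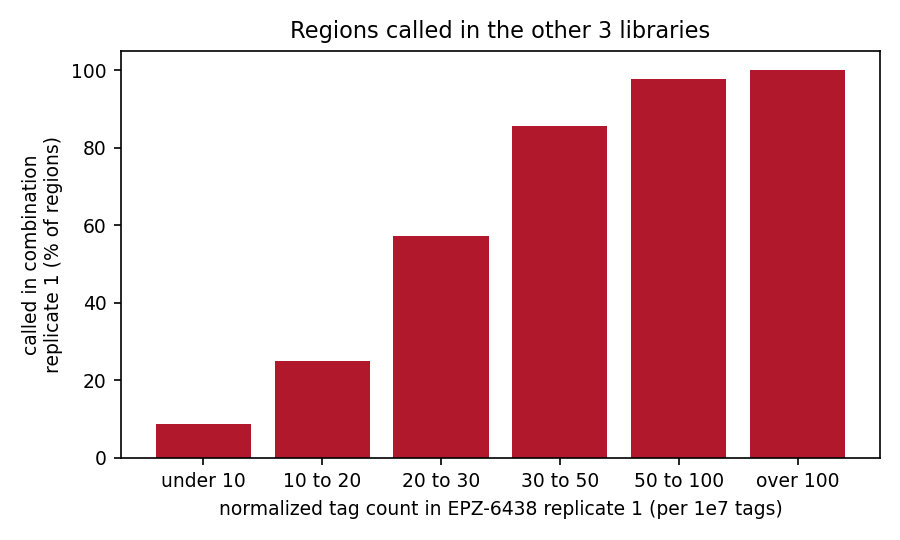
Share of regions called in combination replicate 1, among regions called in the other 3 libraries, by normalized tag count in EPZ-6438 replicate 1 (per 1e7 tags). The share climbs from 8.73% under 10 to 97.6% between 50 and 100.

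Lost and gained regions were weak sites that vary between libraries without P5091 too. Lost regions had median normalized tag counts of 12 and 13 in EPZ-6438 replicates 1 and 2, and gained regions had 10 and 14.2 in combination replicates 1 and 2. Both DMSO libraries called 35.9% of the lost regions and 41.2% of the gained ones, beside 92.8% of the regions called in all 4. Both P5091 libraries called 34.2% of the lost and 46.9% of the gained regions, beside 92.8% of those called in all 4. Regions called in all 4 are much stronger, so weaker sets are given too. Of the regions missing in combination replicate 1 alone, both DMSO libraries called 65.5% and both P5091 libraries 64.8%. For regions called in 1 of the 4 libraries these shares were 11.5% and 10.3%. Tagged wild-type FOXA1 had a peak at 40.1% of the lost and 48.1% of the gained regions, against 87.9% of those called in all 4. The 2 untagged control libraries of that antibody had a peak at no more than 0.823% of any of these sets.

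Calls at these sites with P5091 and with DMSO were compared next. Of the 7083 lost regions, 239 were called in both DMSO libraries and in neither P5091 library, and 223 showed the reverse. Of the 486 gained regions, 22 were called in both P5091 libraries and in neither DMSO library, and 12 showed the reverse. Among regions called in all 4 libraries, 187 of 27210 were called in both P5091 libraries and in neither DMSO library, and 141 showed the reverse. Among the 25274 regions missing in combination replicate 1 alone, these numbers were 631 and 515. Differences between these sets and between directions were not tested.

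Among the strongest gained and lost regions, 2 pairs were neighbouring summits. The lost region chr13:28539760-28540122 had 51.8 and 48.8 in EPZ-6438 replicates 1 and 2, and 1 base beyond it begins the gained region chr13:28540124-28540410, with 13.8 and 45 in combination replicates 1 and 2. The lost region chr3:97647002-97647364 (38.5 and 48.8 with EPZ-6438) lies 83 bases from the gained region chr3:97646566-97646918 (20.6 and 47.3 with the combination). In both pairs the combination was called on one summit and EPZ-6438 on the next, 326 and 441 bases apart from centre to centre. Over all gained regions, 89 of 486 (18.3%) had an EPZ-6438 peak centred within 1000 bases, and 415 of 7083 lost regions (5.86%) had a combination peak within that distance. The same share was not computed for other regions, so these 2 shares have no reference and do not show how many calls are shifted summits. When peaks of all 8 FOXA1 libraries were merged, the pair on chromosome 13 fell in 1 region called in all 8.

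The remaining leading regions had no such neighbour among those named. The strongest lost region, chr11:85194933-85195295, had 89.4 and 129.3 in EPZ-6438 replicates 1 and 2, 52.8 and 82.3 with P5091 and no peak in either DMSO library. Tagged wild-type FOXA1 also had a peak there (52.7). At chr5:108989940-108990302 the lost peak had 27 and 61.8 with EPZ-6438, and no P5091 or DMSO library called it. The strongest gained region, chr1:145039780-145040121, had 26.9 and 60 in combination replicates 1 and 2 and 54.5 in P5091 replicate 2, with no peak in P5091 replicate 1 or in DMSO. At chr10:79258688-79258981 the counts were 23.8 and 51.3 with the combination, and no other FOXA1 library had a peak. Neither tagged wild-type nor tagged K295A FOXA1 had a peak there.

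Single common regions with the smallest p in each direction did not pass the test. The lowest was chr9:15276598-15276960, with 10.6 and 21.3 in combination replicates 1 and 2, against 52.2 and 65.9 with EPZ-6438 (log2 difference -1.30 ± 0.30 SE after centring, limma adjusted p = 0.307). P5091 gave 47.6 and 36.9 there and DMSO 50.5 and 37.2, so before centring both combination values lay below all 6 other FOXA1 libraries. Combination replicate 1 was low over the common regions in general, and how often this rank occurs among them was not counted. At chr2:1100042-1100404 the counts were 11.9 and 15 with the combination and 52.7 and 46.3 with EPZ-6438 (-1.22 ± 0.31, adjusted p = 0.549), with 25.4 to 59.2 in the P5091 and DMSO libraries. Here too both combination values were the lowest of the 8, before centring. The other lower regions were chr1:87379898-87380285 (7.5 and 23.7, against 40.7 and 56.9; -1.17 ± 0.31) and chr12:31141747-31142168 (21.9 and 63.1, against 135.5 and 91.1; -0.95 ± 0.27), with adjusted p of 0.89 and 0.999 by limma. At the first of these, P5091 replicate 1 (22.2) and DMSO replicate 2 (15.7) lay below combination replicate 2.

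Among higher regions the lowest p was at chr10:130961747-130962129, with 19.4 and 39.5 in combination replicates 1 and 2, against 12 and 18.7 with EPZ-6438 (log2 difference 1.44 ± 0.34 SE, limma adjusted p = 0.307). P5091 replicate 2 had 38.7 and DMSO replicate 2 had 30.8 at this region, and their replicates 1 called no peak. At chr6:74230655-74231088 the combination had 47.5 and 44.2 and EPZ-6438 had 32.3 and 28.5 (1.17 ± 0.29, adjusted p = 0.54). P5091 had 58.1 and 20 there and DMSO 24.9 and 19.7, so P5091 replicate 1 was above both combination values. At chr13:73899781-73900143 the counts were 14.4 and 37.9 with the combination and 10.2 and 15.4 with EPZ-6438 (1.45 ± 0.37, adjusted p = 0.549), while DMSO had 26.3 and 29.6. At chr5:102004260-102004622 they were 14.4 and 40.2 with the combination and 16.8 and 13 with EPZ-6438 (1.27 ± 0.35, adjusted p = 0.999). At 3 of these 4 regions combination replicate 1 exceeded EPZ-6438 replicate 1 even before centring.

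**Figure D5:**
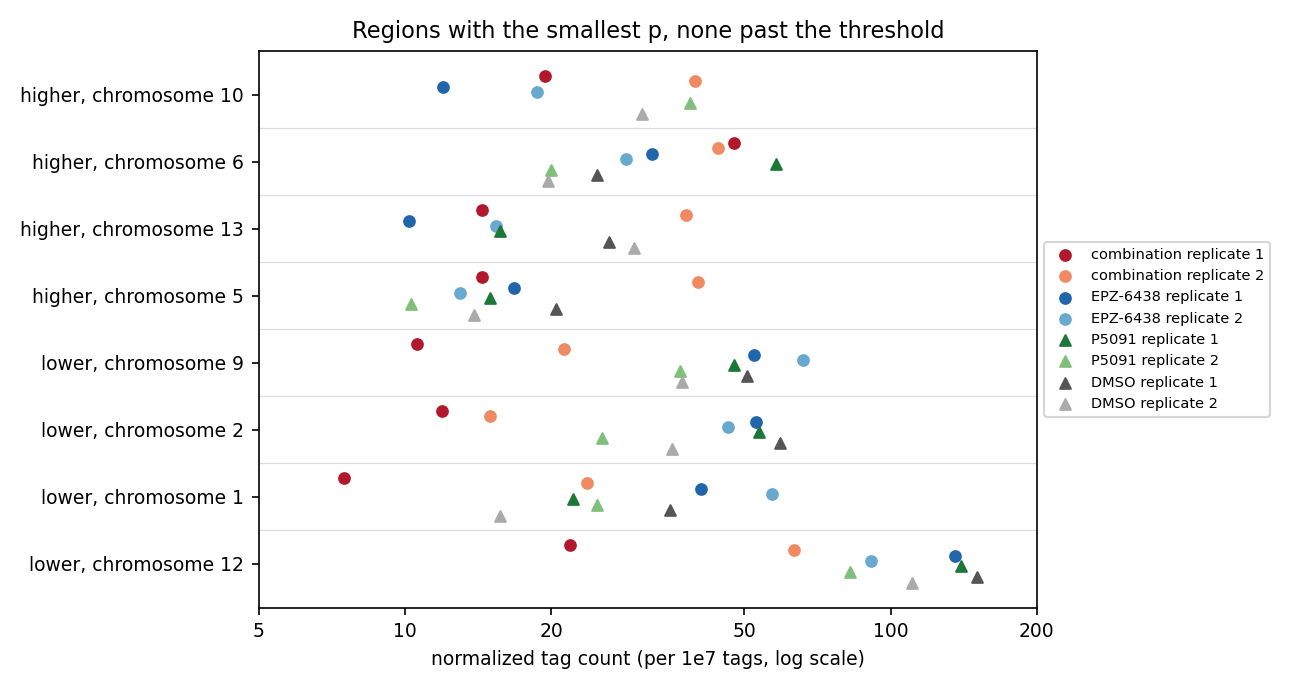
Normalized tag count (per 1e7 tags, log scale, not centred) of all 8 FOXA1 libraries at the 4 regions with the smallest p in each direction, named by chromosome; circles are combination and EPZ-6438, triangles P5091 and DMSO, and a missing symbol means no peak. At the region on chromosome 9 both combination values, 10.6 and 21.3, lie below all 6 others, but combination replicate 1 was low over the common regions in general.

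The 26 regions beyond 2-fold in both replicates form sets of unlike strength, but the values compared also chose the sets. A region had to be called in combination replicate 1, so a 2-fold fall there requires a higher EPZ-6438 value than a rise does. The 5 lower ones had 40.7 to 58.9 in replicate 1 and 24.4 to 65.9 in replicate 2 with EPZ-6438. With the combination they had 7.5 to 11.9 and 11 to 25.3. Tagged wild-type FOXA1 had a peak at all 5, all 6 other FOXA1 libraries called them, and combination replicate 2 lay below all 6 at 4 of them. Most common regions share the first 2 traits: 87.9% of the 27210 had a tagged peak, and 24168 were called in all P5091 and DMSO libraries. The rank of combination replicate 2 was not counted over all common regions, and its low value helped to choose these 5. Beside the regions on chromosomes 9 and 1 given above, the 5 lower regions were 3 others. At chr7:85395035-85395474 the counts were 11.9 and 17.4 with the combination and 58.9 and 39 with EPZ-6438. At chr3:170186981-170187411 the combination had 8.75 and 11 and EPZ-6438 had 44.7 and 24.4. At chr17:37617324-37617722 they were 10.6 and 25.3 with the combination and 52.2 and 55.3 with EPZ-6438. Their least adjusted p was 0.307 by limma. The 21 higher regions were weak: medians were 11.9 and 26 in combination replicates 1 and 2 and 11.1 and 13 with EPZ-6438. EPZ-6438 replicate 2 had at most 15 tags at 10 of them, near its false discovery rate threshold of 10 tags. Tagged wild-type FOXA1 had a peak at 10 of the 21, and 11 of the 21 were called in all 8 libraries.

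P5091 minus DMSO also did not repeat between replicates. On its own 4 libraries, which share none with the comparison above, limma with the replicate block and centring called 0 of 45511 regions higher or lower with P5091 than with DMSO (0%), with 2067 at an unadjusted p under 0.05. At the 24168 common regions also called in all P5091 and DMSO libraries, P5091 minus DMSO had the same sign in both replicates at 49.2% of regions (r = -0.024), beside 49.1% for combination minus EPZ-6438 (r = -0.025). The mean difference upon adding P5091 with EPZ-6438 and the mean without it had the same sign at 52.4% of regions, with r = 0.046 across regions. By replicate the same sign was found at 47.7% of regions in replicate 1 (r = -0.049) and at 50.2% in replicate 2 (r = -0.0055), so the replicates taken singly did not show the positive r of the means. Whether P5091 acts differently with and without EPZ-6438 was tested as an interaction at the 24242 regions called in all 8 FOXA1 libraries, and limma called 0 higher and 0 lower (0%), with 813 unadjusted. edgeR also called 0, with 833 unadjusted.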

How the data were processed

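Peak lists of the 4 compared libraries, with the P5091, DMSO and HA lists for reference, were used as deposited. Bowtie2 and HOMER 4.2 with build hg19 were used, per the submitters' processing notes. Per the file headers, the authors called peaks in each library with HOMER findPeaks in factor mode (false discovery rate 0.001, 4-fold and Poisson p 0.0001 over a 10 kb window, and for FOXA1 over input); 1 input serves both replicates of a treatment. Deposited values per peak were the normalized tag count (a signal per 1e7 tags), the focus ratio (a fraction), the findPeaks score, fold ratios over the local window and input, and, per the file headers of EPZ-6438 replicate 2, combination replicate 2 and DMSO replicate 1, whole-number counts of tags.

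Peaks sharing at least 1 base were merged, and each library took its highest peak per region. limma (3.58.1, R 4.3.3, trend on) was fitted to log2 (tag count + 1) at regions called in all 4 libraries, centred on each library's median and blocked by replicate number; it used one spread for all regions of like signal. Tags recovered from signal and library total were whole within print rounding (at most 0.113 tags) for 100% of peaks and equalled the deposited counts for 97.3% to 100%; they were used for edgeR (4.0.16) and DESeq2 (1.42.0). Replicate numbers come from the titles. Deviations of same-numbered libraries correlated at 0.206 across regions, and fragment lengths were 278 bases in both libraries numbered 1 and 216 and 224 in those numbered 2. Steps were tested on simulated data. Regions named singly were the 4 with the smallest p per direction among non-overlapping ones, since none passed, and the 4 strongest gained and lost; the regions beyond 2-fold in both replicates and the strongest common ones were named after their values were seen. The libraries and rules were chosen with earlier results of these data known. Intervals cover the spread between libraries or, where said, counting error. Genes near regions and their sequences were not analysed here.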

Additional observations from a re-analysis of the deposited data

Results flagged for a closer look

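At chr5:102004260-102004622, a region of the common set, every pair moved one way with EPZ-6438 present and the other way without it after centring. Before centring, combination replicate 1 (14.4) lay below EPZ-6438 replicate 1 (16.8), so the direction of that pair depends on centring. Combination minus EPZ-6438 was 0.90 and 1.63 in replicates 1 and 2 (log2 difference 1.27 ± 0.35 SE, limma adjusted p = 0.999), and P5091 minus DMSO was -0.37 and -0.46. The interaction at this region was 1.71 ± 0.52 SE (limma adjusted p = 0.999), so the difference did not pass the test.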

How the results depend on the processing

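The count of 0 regions with changed signal was the same without the replicate block (597 unadjusted), with the block but not centred, with quantile normalization, the trend on mean tag count removed, a pseudocount of 5, the upper part of mean tag counts, scores of at least 20, summed peaks, merging at 100 shared bases, edgeR, DESeq2 and all 8 FOXA1 libraries. Leaving out each library of the 8-library fit gave 0 to 26 regions; the 26 (1 higher, 25 lower) came without combination replicate 2, where replicate 1 stands alone and is assumed to vary like the other groups. The interaction stayed at 0 without the block (249 unadjusted), uncentred, with edgeR and without each library. The 26 regions beyond 2-fold in both replicates became 153 without centring, all lower, 14 with the trend removed, 2 with a pseudocount of 5 and 1 among the upper part of mean tag counts; a single replicate gave 502 to 1355. At scores of at least 20, gained regions numbered 10 and lost regions 4909. Single replicates gave 2205 to 19938 gained and 21168 to 49174 lost regions. Of the 8 regions named by p, chr12:31141747-31142168 passed once, without combination replicate 2 (adjusted p = 0.0155). The cause of these shifts was not tested. Single-library values of the replicate counts and of the interaction were added after seeing the data.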

Other observations

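The strongest region of all lay on the unplaced contig Un_gl000220 at 134049 to 134411. It had 2166.3 and 4489.4 in combination replicates 1 and 2 and 5561.4 and 5332.9 in EPZ-6438 replicates 1 and 2. P5091 gave 2267.5 and 3137.5, DMSO replicate 2 gave 2505.6, and DMSO replicate 1 called no peak there. Both libraries with EPZ-6438 alone were the highest of the 8 at this region, and combination replicate 2 came next. That order did not hold at other strong regions of the contig. At 110594 to 110956 combination replicate 2 had 1955.5, against 1772.9 and 1902.6 with EPZ-6438. At 154565 to 154927 it had 2062.8, against 1755.2 and 1921.3. The strongest regions of this contig were kept in every count and test for which they qualified.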
